A study of Mus musculus with 2 samples.

Results

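The proteasome genes are the rows of the expression table whose symbol starts with Psm, a letter from a to g and a number. There were 50 of them among the 17408 genes of the table, in droplet single-cell 3′ RNA-seq of mouse cells undergoing reprogramming towards pluripotency, collected unsorted on day 16. The cells began as mouse embryonic fibroblasts (MEFs) carrying STEMCCA, a doxycycline-inducible cassette of Pou5f1, Sox2, Klf4 and Myc, and both libraries were kept in mouse embryonic stem cell medium with LIF, doxycycline and ascorbic acid. The labels put the 2 libraries in 1 group without an untreated control, so the comparisons are between kinds of cells within each library. The study's text says that the day-16 populations came from 2 separate STEMCCA mouse systems, while the labels do not tie a library to a system, so a difference between libraries cannot be told apart from one between systems. They are called replicate 1 and replicate 2 here for that shared group. Replicate 1 held 3109 cells with a median of 15625 unique molecular identifiers (UMIs, counted RNA molecules) per cell, and replicate 2 held 3914 cells with a median of 14292, with 12 barcodes found in both. The p-values given here rest only on how far differences between kinds of cells varied between these 2 libraries, whatever the source. That spread was in part shared among all genes tested.

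The proteasome is the cell's main protease for ubiquitin-tagged proteins. Its 20S core is a barrel of alpha and beta rings whose catalytic beta subunits cut proteins on the inside, and its 19S cap holds a ring of ATPases that unfold substrates and non-ATPase subunits that bind and remove ubiquitin. Cells that respond to interferon swap the catalytic subunits for immunoproteasome subunits, which favour peptides for MHC class I, and cap-like activators such as PA28 and PA200 can replace the 19S. Embryonic stem cells are known for high proteasome activity.

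By role, the 50 genes held 8 genes of the alpha ring, 7 of the constitutive beta ring, 3 of the immunoproteasome (Psmb8, Psmb9 and Psmb10) and Psmb11 of the thymus form. There were 6 ATPases, 11 non-ATPase subunits, 3 chaperones of 19S assembly, 5 activators, 4 chaperones of 20S assembly and the inhibitor Psmf1. The pattern also takes in Psmc3ip, a meiotic recombination factor that is no proteasome subunit. A level here is the mean over the cells of a kind of the UMIs per 10000 UMIs of the cell, and the 45 genes that averaged 0.1 or more across the whole table were tested. The 5 genes under that limit, Psma8, Psmb8, Psmb9, Psmb11 and Psme2b, are described by their UMI sums.

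Cells were grouped by clustering without the proteasome genes, their partners, X-linked and Y-linked genes and the 4 reprogramming factors. Of 17 clusters, 12 had at least 30 cells in both libraries and are called states. The pluripotent-like state, with 11 of 11 listed pluripotency markers raised at least 2-fold, held 146 cells in replicate 1 (4.70%) and 391 in replicate 2 (9.99%). The fibroblast-like state, with 10 of 11 fibroblast markers raised, held 247 and 157 cells. A mitotic-like and a myofibroblast-like state were named likewise, and the other 8 states are given by their leading genes. Pluripotent-like cells were deeper than the rest, with median UMI counts of 28768 and 26097 per cell against 15214 and 13651. They also cycled more by their markers: 9 of 10 mitotic and 11 of 11 S-phase markers tested were higher than in all other cells, with Mki67 the lower one.

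Promoter windows from RefSeq (GRCm38.p6, 250 bases before to 50 after the annotated start) matched 42 of the 50 genes. The sequences shown are those of the 2 genes with the largest rise in pluripotent-like cells (Psmg1 and Psmd12), the catalytic subunit with the largest rise (Psmb6), an alpha-ring gene with CCAAT boxes (Psma1), and the one gene that was lower (Psmd9). They lie at chr16:95990911-95991210 (minus strand), chr11:107479278-107479577, chr11:70525107-70525406, chr7:114276067-114276366 (minus strand) and chr5:123227940-123228239. Capitals mark a match on either strand to the antioxidant response element core TGACNNNGC, which the proteasome regulators Nfe2l1 and Nfe2l2 bind, to CCAAT, or to the interferon-type core GAAA, any 2 bases and GAAA again.
Psmg1: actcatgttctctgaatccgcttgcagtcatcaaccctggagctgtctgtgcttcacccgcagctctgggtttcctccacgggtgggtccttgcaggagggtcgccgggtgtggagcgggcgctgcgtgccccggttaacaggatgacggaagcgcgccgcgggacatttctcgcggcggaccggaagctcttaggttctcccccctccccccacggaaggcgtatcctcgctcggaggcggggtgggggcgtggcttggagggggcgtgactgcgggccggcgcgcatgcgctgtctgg
Psmd12: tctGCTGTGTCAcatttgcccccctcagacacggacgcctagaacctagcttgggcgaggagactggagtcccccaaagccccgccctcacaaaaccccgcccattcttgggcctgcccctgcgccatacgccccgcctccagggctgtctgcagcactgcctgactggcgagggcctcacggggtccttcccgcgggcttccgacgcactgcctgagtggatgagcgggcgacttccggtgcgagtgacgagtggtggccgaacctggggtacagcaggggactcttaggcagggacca
Psmb6: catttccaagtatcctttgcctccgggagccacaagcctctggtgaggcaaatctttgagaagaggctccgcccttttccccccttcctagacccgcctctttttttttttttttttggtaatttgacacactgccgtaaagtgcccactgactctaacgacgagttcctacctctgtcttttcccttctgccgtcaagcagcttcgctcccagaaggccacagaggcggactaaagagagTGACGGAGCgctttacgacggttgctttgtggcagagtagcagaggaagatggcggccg
Psma1: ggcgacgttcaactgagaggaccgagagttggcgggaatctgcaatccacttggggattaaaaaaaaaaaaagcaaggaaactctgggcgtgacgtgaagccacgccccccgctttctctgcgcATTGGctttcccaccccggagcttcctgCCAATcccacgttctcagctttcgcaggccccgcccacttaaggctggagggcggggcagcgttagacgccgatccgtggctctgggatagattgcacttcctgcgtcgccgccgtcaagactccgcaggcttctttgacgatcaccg
Psmd9: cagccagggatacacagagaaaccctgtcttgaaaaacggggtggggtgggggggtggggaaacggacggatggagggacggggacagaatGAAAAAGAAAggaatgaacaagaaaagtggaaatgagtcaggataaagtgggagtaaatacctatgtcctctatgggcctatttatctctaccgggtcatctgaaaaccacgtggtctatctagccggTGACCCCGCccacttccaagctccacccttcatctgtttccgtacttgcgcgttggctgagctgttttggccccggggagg
Psmb6 held TGACGGAGC at -9 from the start, Psmd12 the reverse complement of the same core at -247, and Psmd9 both TGACCCCGC at -31 and the interferon-type core at -159. Psma1 held CCAAT once on each strand. No letters of the 3 motifs occurred in the window of Psmg1.

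Over the 42 windows, TGACNNNGC was found in 6 (14.3%), against 12.5% of the windows of all 27025 genes. CCAAT was found in 15 (35.7%), against 37.9% of all windows, and 5 of the 7 alpha-ring windows held it. The interferon-type core was found in 5 windows (11.9%), against 3.49% of all, namely those of Psmb3, Psmd4, Psmd9, Psme1 and Psmg4, and in none of the 3 immunoproteasome windows. The first 2 motifs were thus about as frequent in proteasome windows as elsewhere, and a match is not a bound site.

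The first question was how the proteasome genes differed between cells that had reached a pluripotent-like state and all other cells of the same culture. Most subunits of the core and the cap had more transcripts per cell total in the pluripotent-like state, whichever library was taken. Of the 45 genes tested, 37 were higher and 1 was lower (limma with a library term, Benjamini-Hochberg adjusted p under 0.05 over 7131 genes), where 77.7% of all genes tested were called, 31.5% higher and 46.2% lower. The median log2 fold of the 45 genes was 0.57 in replicate 1 and 0.57 in replicate 2, and 0.55 for the mean of both, against -0.16 for all genes tested. Relative to that shift of all genes, the proteasome median lay 0.71 higher on the log2 scale. Folds are on the scale of log2(level + 0.1), which understates the change of low genes. On it 3 of the 45 genes (6.67%) reached a 2-fold rise, near the 7.24% of all genes tested. With each cell thinned to 3000 UMIs, which removes the difference in depth, the median was 0.60 and 27 genes were higher and 1 lower.

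**Figure D1:**
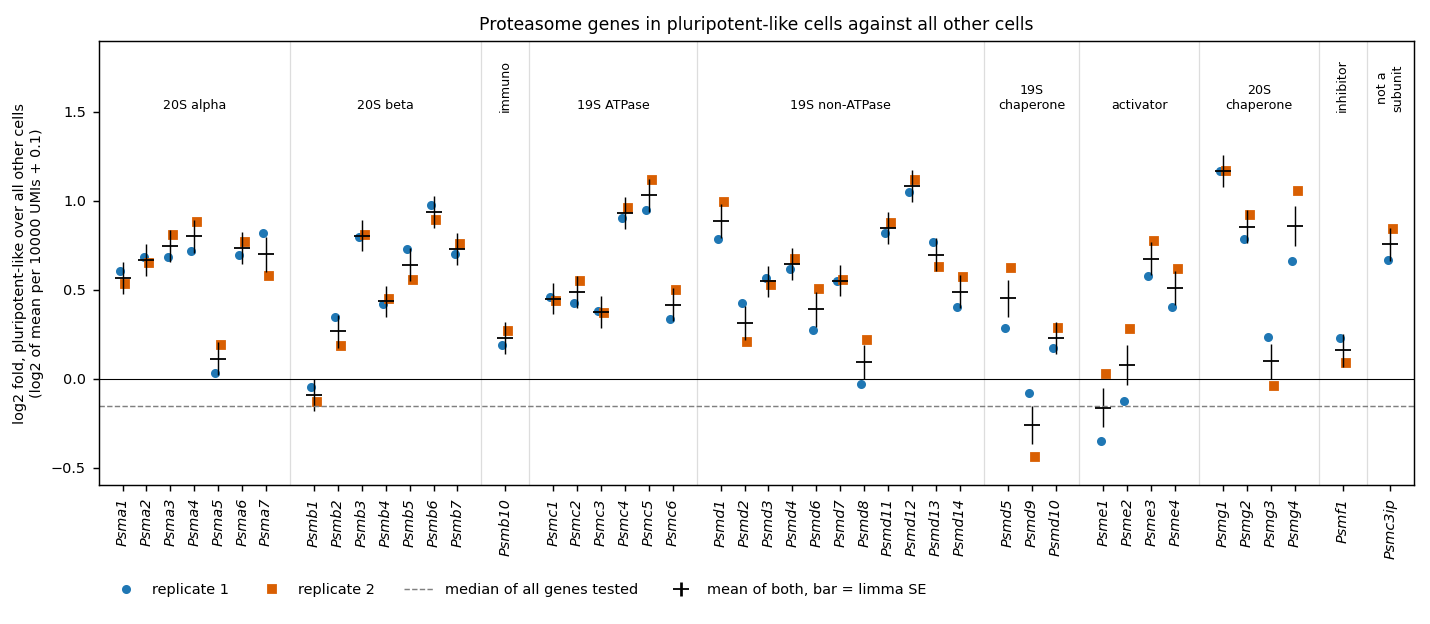
Log2 fold of each of the 45 proteasome genes tested, pluripotent-like over all other cells, by role (vertical axis: log2 fold; circles replicate 1, squares replicate 2, black dashes the mean with its limma standard error, dashed grey line the median of all genes tested). Most genes sit above 0 in both libraries, Psmg1, Psmd12 and Psmc5 are highest, and Psmd9 is the only gene called lower.

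In the alpha ring, 6 of 7 genes tested were higher. Psma4 led with pluripotent-like levels of 3.03 (replicate 1) and 3.32 (replicate 2), where the remaining cells had 1.80 and 1.76. For this gene limma gave a log2 fold of 0.80 with an SE of 0.093 (limma adjusted p = 4.2e-05). Psma7 had 6.88 and 5.92 against 3.85 and 3.94, a log2 fold of 0.70. The exception was Psma5, with 0.842 and 0.906 against 0.821 and 0.781 and a log2 fold of 0.11 (limma adjusted p = 0.29). The other 4 genes called, Psma1, Psma2, Psma3 and Psma6, had log2 folds between 0.57 and 0.75.

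In the constitutive beta ring, 6 of 7 were higher, among them the 3 catalytic subunits. Psmb6, the caspase-like subunit, had levels of 4.69 and 4.55 in pluripotent-like cells against 2.33 and 2.40 in the others, a 1.91-fold difference with an SE of 0.090 on the log2 scale (limma adjusted p = 1.2e-05). Psmb5, the chymotrypsin-like subunit and the main target of proteasome inhibitors, had 3.43 and 2.88 against 2.03 and 1.93 (log2 fold 0.64, limma adjusted p = 0.00019). Psmb7, the trypsin-like subunit, had 1.61 and 1.60 against 0.953 and 0.907 (log2 fold 0.73, limma adjusted p = 5.9e-05). All 3 catalytic genes were thus called higher, where 31.5% of all genes tested were. Psmb1, a structural subunit of the same ring, had 3.58 and 3.50 against 3.71 and 3.85, and its log2 fold was -0.09 (limma adjusted p = 0.38). Psmb2, Psmb3 and Psmb4 were called, with log2 folds of 0.27, 0.80 and 0.43.

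The 19S base and lid genes of the pattern rose broadly as well. Shfm1, a lid subunit whose symbol lies outside the pattern, was counted among the partners and was lower in pluripotent-like cells. It had 2.98 and 2.60 against 3.75 and 3.17 in the others (log2 fold -0.30, limma adjusted p = 0.013). All 6 ATPases were higher, with log2 folds from 0.37 (Psmc3) to 1.03 (Psmc5). Psmc5 had levels of 1.34 and 1.40 in pluripotent-like cells against 0.648 and 0.591 in the others, a 2.04-fold difference (SE 0.093 on the log2 scale, limma adjusted p = 8.1e-06). Psmc3 had 1.48 and 1.32 against 1.12 and 1.00 (limma adjusted p = 0.0037). Psmc4 was close to Psmc5, with a log2 fold of 0.93.

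Among the non-ATPase subunits, 10 of 11 were higher. Psmd12, a scaffold subunit of the lid, was the highest at 1.07 and 1.15 against 0.468 and 0.474, a 2.12-fold difference with an SE of 0.089 on the log2 scale (limma adjusted p = 4.7e-06). The deubiquitinase of the lid, Psmd14, had 0.761 and 0.975 against 0.551 and 0.623 (log2 fold 0.49, limma adjusted p = 0.001). The ubiquitin receptor Psmd4 had 2.26 and 2.32 against 1.44 and 1.42 (log2 fold 0.65). Psmd8, another lid subunit, was the one not called, with 1.62 and 1.81 against 1.66 and 1.55. Its libraries differed in sign (-0.03 and 0.22).

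The chaperones that build the particle held both the largest rise and the one fall. Psmg1, which pairs with Psmg2 to start the alpha ring, had levels of 0.481 and 0.499 in pluripotent-like cells against 0.159 and 0.167 in the others. On the scale of log2(level + 0.1) this was a 2.25-fold difference with an SE of 0.088 (limma adjusted p = 2.7e-06), nearly equal in both libraries. Psmg2 had a log2 fold of 0.85, and Psmg4 rose by 0.66 in replicate 1 and 1.06 in replicate 2. Psmg3, the partner of Psmg4, had 0.294 and 0.192 against 0.235 and 0.201 and was not called (limma adjusted p = 0.4).

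Of the 3 chaperones of 19S assembly, Psmd9 was lower, at 0.378 and 0.26 against 0.406 and 0.389. Its log2 fold was -0.08 in replicate 1 and -0.44 in replicate 2 (-0.26 for both, limma adjusted p = 0.049), and it passed the threshold in only 5 of 12 alternative settings. Its annotated gene (chr5:123169413-123250131, GENCODE M21) overlaps Hpd and Gm26745 on the other strand, and no source used here gives whether counting used strand. Psmd5 was higher, at 0.189 and 0.231 against 0.137 and 0.116 (log2 fold 0.45, limma adjusted p = 0.0033). The X-linked Psmd10, or gankyrin, had 0.295 and 0.375 against 0.25 and 0.291 (log2 fold 0.23, limma adjusted p = 0.043), a call that held in 7 of 12 alternative settings.

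The activators split by kind. Psme3, the nuclear PA28 gamma, had levels of 0.704 and 0.72 in pluripotent-like cells against 0.440 and 0.379, a 1.60-fold difference (limma adjusted p = 0.00015). Psme4, which encodes PA200, had 0.36 and 0.36 against 0.249 and 0.2 (log2 fold 0.51, limma adjusted p = 0.00096). Both were above the other cells in each library. The interferon-responsive PA28 pair was not called: Psme1 had 0.503 and 0.792 against 0.670 and 0.776 (limma adjusted p = 0.2), and Psme2 had 0.680 and 0.894 against 0.751 and 0.719 (limma adjusted p = 0.54). In both of these genes replicate 1 was lower and replicate 2 higher in pluripotent-like cells. The inhibitor Psmf1 had 0.259 and 0.225 against 0.206 and 0.205 (log2 fold 0.16, limma adjusted p = 0.14).

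Fibroblast-like cells carry markers of the cell type the culture began with, and their leading genes were Spp1, Mmp3 and Col10a1. Fibroblast markers were not particular to them: the myofibroblast-like state also raised 10 of 11, and the Ptx3-led state 8. Whether the fibroblast-like cells are remaining MEFs was not tested. The second comparison set pluripotent-like against fibroblast-like cells. Here 38 of 45 genes were higher and 1 lower, where 75.0% of all genes tested were called, 31.1% higher and 44.0% lower, and the median log2 fold was 0.79 against -0.18 for all genes. Psmg1 again had the largest difference, with fibroblast-like levels of 0.117 and 0.0934. On the scale of log2(level + 0.1), which understates the fold of such low levels, it was 2.88-fold (limma adjusted p = 3.0e-05). Psmd12 had 0.355 and 0.378 in fibroblast-like cells, a 2.59-fold difference. The genes not called were Psmb1, Psmd2, Psmd8, Psmd10, Psme1 and Psme2, and Psmd9 was lower (log2 fold -0.34, limma adjusted p = 0.036). The pluripotent-like libraries are the same as in the first comparison, so the results are not independent.

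Cycling markers moved with the pluripotent-like class, so it was also set against the mitotic-like state alone, a comparison added after the data were seen. Of the 45 genes, 31 were higher and 1 lower, where 25.2% of all genes tested were higher and 47.4% lower. The median log2 fold was 0.31, against -0.19 for all genes. Psmg1 kept a log2 fold of 1.04, Psmd12 0.82, Psmg4 0.78 and Psmc5 0.77 (limma adjusted p at most 4.0e-11). These p-values followed the size of the mean fold and not each gene's own spread between libraries. Psmg4, with log2 folds of 0.56 and 0.99, had a limma adjusted p of 3.2e-11, and Psmc5, with 0.75 and 0.80, had 4.0e-11. Such small values are therefore not read as stronger support than those of the first comparison. Psmb2, Psmc3, Psmc6, Psmd2, Psmd5 and Psmc3ip were no longer called, and Psmd9 stayed lower at -0.37. The non-subunit Psmc3ip had 0.23 and 0.251 in pluripotent-like cells against 0.108 and 0.0958 in all other cells, but 0.262 and 0.233 in mitotic-like cells.

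Across the 12 states the core and cap followed one order at the top. The summed level of the 20S core genes (alpha ring and constitutive beta ring, 15 genes) was 43.6 and 42.3 per 10000 UMIs in pluripotent-like cells. The state led by Perp, Krt19 and Gsto1 came next with 34.9 and 37.8, followed by the mitotic-like state with 31.3 and 32.5, so neither neighbour overlapped the one above. The fibroblast-like, myofibroblast-like and Pcp4-led states had the lowest sums together with the Ptx3-led and Mmp11-led states, between 23.3 and 25.1, with overlapping ranges. The 6 ATPases summed to 7.44 and 7.38 in pluripotent-like cells, 6.16 and 6.58 in the Perp-led state and 4.13 and 4.15 in fibroblast-like cells. For the 11 non-ATPase genes these sums were 14.8 and 15.3, 12.6 and 13.9, and 8.92 and 8.98.

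**Figure D2:**
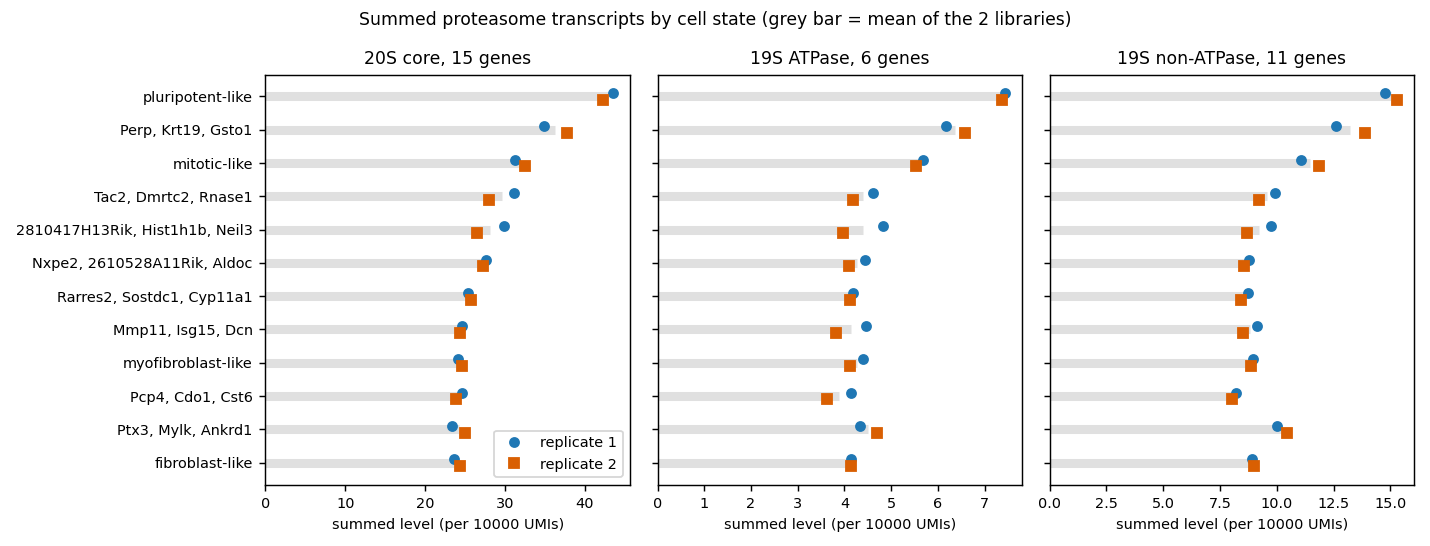
Summed levels of the 20S core, 19S ATPase and 19S non-ATPase genes (horizontal axes, per 10000 UMIs, from 0) in the 12 states, with circles for replicate 1, squares for replicate 2 and grey bars for their mean. Pluripotent-like cells are highest in all 3 panels, followed by the state led by Perp, Krt19 and Gsto1 and by the mitotic-like state.

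Gene by gene, pluripotent-like cells were the highest of the 12 states in each library for 27 of the 45 genes, where this held for 20.2% of all genes tested. Both of their values exceeded every value of every other state for 26 genes, against 18.1% of all genes. By the mean of both libraries they were highest for 32 genes and lowest for 1, Psmd9. The Perp-led state was highest for 8 genes and second for 24, and both its libraries exceeded both fibroblast-like values for 42 of 45 genes, against 35.1% of all genes. This state has 2 of 11 epithelial markers raised and no pluripotency marker, and it too was deep, with medians of 19989 and 18132 UMIs per cell. For Psmb1 it was the highest state, at 4.50 and 4.71, and for Psmd8 as well, at 2.20 and 2.31.

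**Figure D3:**
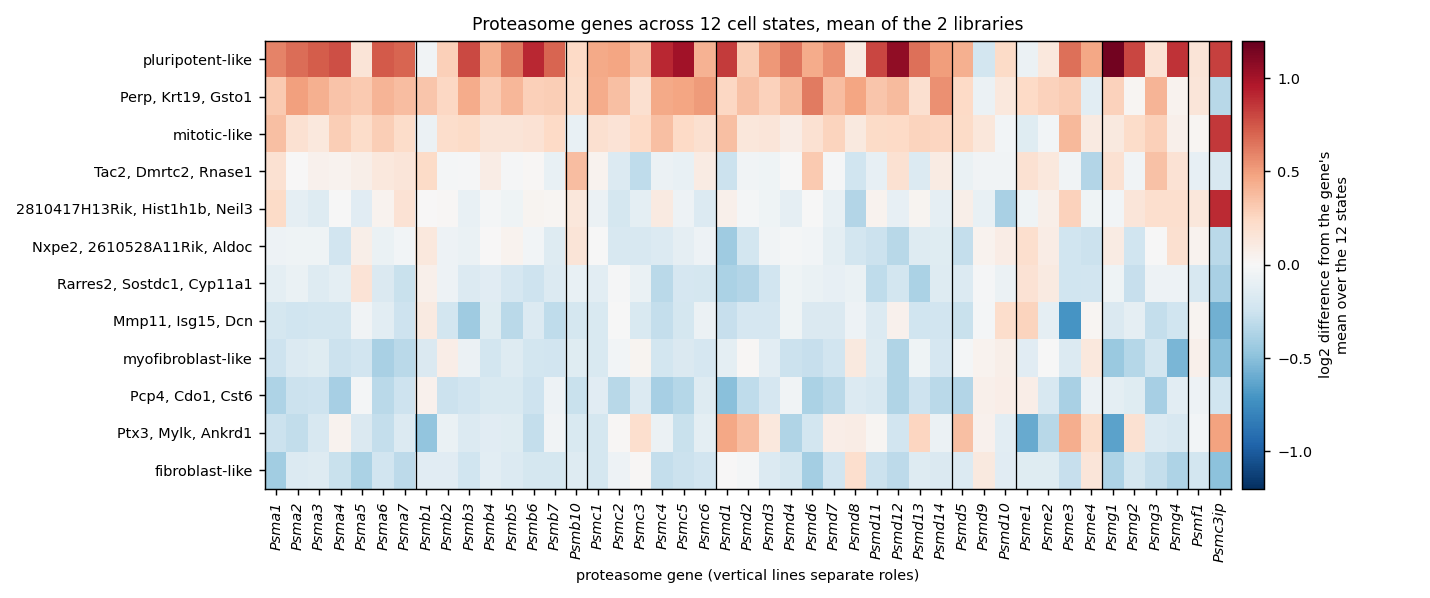
Level of each of the 45 genes tested in each of the 12 states as a log2 difference from the gene's own mean over the states (colour scale), mean of both libraries, with genes grouped by role and states ordered by the 20S core sum. The rows of pluripotent-like, Perp-led and mitotic-like cells are red for most core and cap genes, while Psmd9, Psme1 and Psmc3ip follow other patterns.

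By the limma F test over states, 44 of the 45 genes differed among states, Psmd9 being the exception (adjusted p = 0.6), but so did 94.9% of all genes tested. From the lowest to the highest state the genes spanned a median of 0.96 on the log2 scale, against 1.09 for all genes tested. The level of each gene was also set against the summed level of the other 20S and 19S genes over the 12 states. Pearson's r had a median of 0.83 in replicate 1 and 0.87 in replicate 2 over the 45 genes, and 0.78 and 0.83 over the 11 states without pluripotent-like cells. These values describe the same libraries and depths and carry no test. Over the 12 states the alpha ring had medians of 0.95 and 0.95, the constitutive beta ring 0.92 and 0.95, and the ATPases 0.88 and 0.96. Psmd9 had negative values of -0.13 and -0.62. Psme1 had -0.19 and 0.18.

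Of the immunoproteasome genes, Psmb10 was slightly higher in pluripotent-like cells, while Psmb8 and Psmb9 were too sparse for the main test. Psmb10, which replaces Psmb7, had levels of 0.368 and 0.388 in pluripotent-like cells against 0.311 and 0.306 in the others (log2 fold 0.23, limma adjusted p = 0.042), and it kept its call in 6 of 12 alternative settings. By the mean of both libraries its highest state was the one led by Tac2, Dmrtc2 and Rnase1, at 0.465 and 0.381. Psmb8, which replaces Psmb5, gave 1 UMI of 4228904 in pluripotent-like cells of replicate 1 and 39 of 10356740 in replicate 2, against 357 of 49916473 and 433 of 54297566 in all other cells. Per UMI this was 0.0331 times the level of the other cells in replicate 1 (95% exact interval 0.000835 to 0.185) and 0.472 times in replicate 2 (interval 0.331 to 0.656), intervals that cover counting error only.

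The 39 UMIs of replicate 2 came from 17 of its 391 pluripotent-like cells, with up to 7 in 1 cell. Those 17 cells held 1.65 UMIs per cell of the 8 macrophage markers, against 1.38 in pluripotent-like cells without a Psmb8 UMI and 136 in macrophage-like cells. Psmb9, which replaces Psmb6, gave 1 and 13 UMIs in pluripotent-like cells and 75 and 79 in the others. Its ratios were 0.157 (interval 0.00393 to 0.904) and 0.863 (interval 0.440 to 1.56), so replicate 2 showed no difference beyond counting error. When genes of any level were tested, Psmb8 had a limma adjusted p of 0.078 and Psmb9 of 0.32. The macrophage-like cluster of 4 and 9 cells, too small to test, had 6 and 14 UMIs of Psmb8, or 1.57 and 1.66 per 10000 UMIs.

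As a share of the UMIs of the catalytic genes (Psmb8, Psmb9 and Psmb10 over these and Psmb5, Psmb6 and Psmb7), the immunoproteasome made up 3.68% and 4.73% in pluripotent-like cells. The share was 7.04% and 7.16% in all other cells, and pluripotent-like cells were the lowest of the 12 states in each library. The summed immunoproteasome level itself was 0.372 and 0.448 against 0.403 and 0.404, so the groups overlapped and the lower share goes with the higher constitutive subunits. Capture may differ between genes, and the share is therefore read only between states. The next lowest shares were those of mitotic-like cells, 5.64% and 5.45%.

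**Figure D4:**
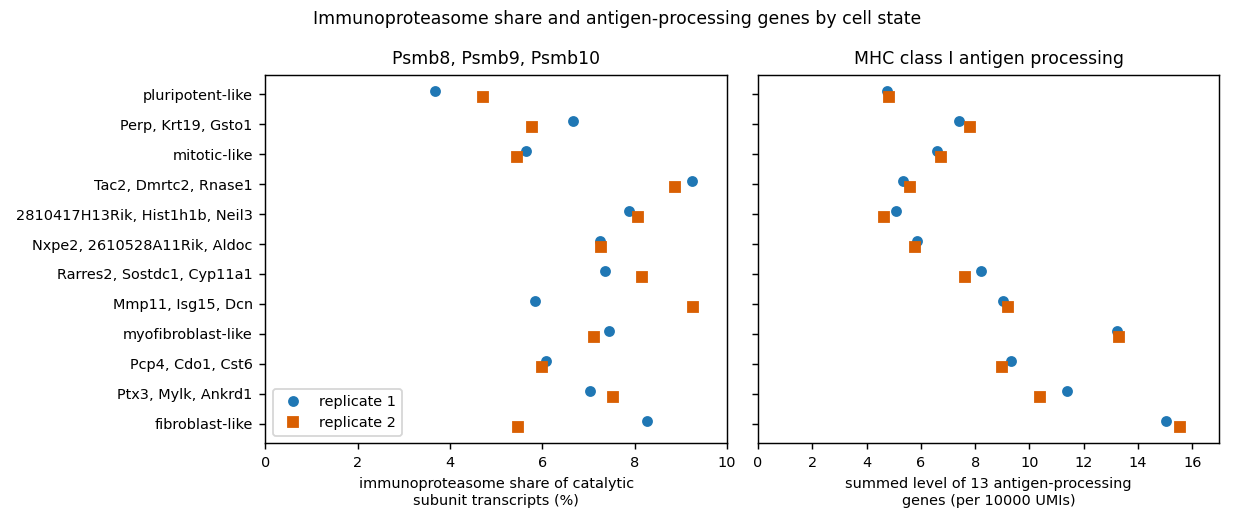
Left, share of the immunoproteasome genes in the UMIs of the catalytic subunit genes (%), and right, summed level of 13 antigen-processing genes (per 10000 UMIs), in the 12 states, with circles for replicate 1 and squares for replicate 2. Pluripotent-like cells have the lowest share (3.68% and 4.73%) and one of the lowest antigen-processing sums, while fibroblast-like cells have the highest sum.

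Genes of MHC class I antigen processing, which act downstream of the immunoproteasome, were low in the same cells. Of the 6 genes of the list tested, 5 were lower and 0 higher, where 46.2% of all genes were lower. B2m, the light chain of MHC class I, had 0.209 and 0.284 against 1.96 and 1.88 (log2 fold -2.55, limma adjusted p = 1.0e-07), and the heavy chains H2-K1 and H2-D1 had log2 folds of -1.70 and -1.61. The peptide transporter Tap1 gave 5 and 12 UMIs against 331 and 338. The 13 genes of the list summed to 4.76 and 4.83 in pluripotent-like cells, 8.63 and 7.87 in all other cells and 15.0 and 15.5 in fibroblast-like cells. The state led by 2810417H13Rik, Hist1h1b and Neil3 had 5.08 and 4.65, which overlapped the pluripotent-like values. Calr, the gene not called, made up 3.42 and 3.26 of the pluripotent-like sums.

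The testis-associated alpha subunit Psma8, which takes the place of Psma7 in spermatocytes, was rare but went the other way. It gave 30 and 126 UMIs in pluripotent-like cells and 41 and 35 in all other cells. Per UMI its level was 8.64 times that of the other cells in replicate 1 (95% exact interval 5.21 to 14.2) and 18.9 times in replicate 2 (interval 12.9 to 28.3). Psma7 and Psma8 are similar in sequence, and the part of shared reads in these values was not tested. Per 1000 UMIs of Psma7 there were 10.3 and 20.1 of Psma8 in pluripotent-like cells and 2.02 and 1.56 in the others. Tested with genes of any level, Psma8 had a limma adjusted p of 0.035 against all other cells, and was not called against fibroblast-like cells (log2 fold 0.63, limma adjusted p = 0.19).

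Psmb11 of the thymus form gave 0 UMIs in pluripotent-like cells of both libraries, which allows up to 0.00709 and 0.0029 per 10000 UMIs, and 4 and 3 UMIs in the others. Psme2b, a near copy of Psme2 whose reads may be shared with it, gave 15 and 47 UMIs, where the much larger class of other cells gave 194 and 167. Tested with genes of any level, Psme2b had a log2 fold of 0.025 (limma adjusted p = 0.83).

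Of the genes that work with the proteasome, 21 partners were tested, of which 7 had higher and 5 lower levels in the pluripotent-like class, where 31.5% of all genes tested were higher and 46.2% lower. The count of higher partners was thus near that of genes at large. Adrm1, a ubiquitin receptor of the cap, had 1.46 and 1.56 against 0.567 and 0.548 (a 2.44-fold difference, limma adjusted p = 1.8e-06), and the shuttle factor Ubqln4 had a log2 fold of 0.94. The cap-bound deubiquitinases Uchl5 and Usp14 had log2 folds of 0.56 and 0.43. Pomp, the maturation factor of the 20S core, had 2.86 and 2.48 against 2.49 and 2.44 (limma adjusted p = 0.31).

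The lower partners included Nfe2l1 and Nfe2l2, transcription factors known to drive proteasome genes. Nfe2l1 had 0.446 and 0.395 against 0.757 and 0.66 (log2 fold -0.64, limma adjusted p = 0.00014), and Nfe2l2 had 0.496 and 0.544 against 0.762 and 0.820 (log2 fold -0.52). Ngly1, which deglycosylates Nfe2l1 protein, had a log2 fold of -0.76, and AI314180, the 19S-binding Ecpas, of -1.07. Of the 31 proteasome windows of genes called higher, 5 held TGACNNNGC (16.1%), near the 12.5% of all windows.

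Among genes that supply ubiquitin and the E1 enzymes that activate it, Ubb and Uba1 were higher. Ubb, a polyubiquitin gene, had 16.4 and 18.4 against 10.6 and 10.6 (log2 fold 0.71, limma adjusted p = 9.7e-05). Uba1, the main E1 enzyme, was higher with a log2 fold of 0.61.

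Between libraries over all cells the 45 genes differed little, with a median log2 ratio of replicate 2 to replicate 1 of 0.01. The range ran from -0.17 for Psmg3 to 0.43 for Psmg4, and 0 genes reached 2-fold. Pluripotent-like levels of Psmg4 were 1.41 (replicate 1) and 2.39 (replicate 2), and those of the others 0.857 and 1.09, so its fold was larger in replicate 2 but above 0 in both, a difference between libraries that was not tested.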

How the data were processed

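Both libraries were Chromium 3′ (V2 chemistry) libraries of day-16 STEMCCA cells. According to the study's methods and the labels, the authors obtained counts with Cell Ranger (version 2.1.1, mm10), imported them into Seurat and kept cells by detected genes and mitochondrial RNA. The values deposited by the authors are natural logs, ln(1 + UMIs per 10000 of the cell). Taken back to a linear scale and divided by each cell's smallest value, 100% were whole within 0.01, so UMIs were recovered (54145377 and 64654306 per library, 4753 to 60990 per cell). No source used here gives whether doublets were removed. Scrublet called 11 and 14 cells, so few that its calls were not used.

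The proteasome genes, role lists and pathway lists were chosen with earlier results of these data known. All genes matching the pattern were accounted for, and values per library were given for the catalytic subunits and their immunoproteasome counterparts, the highest and lowest gene of each role, the activators, the inhibitor and Psmd10. Other genes with values, such as Psma7, Psmd4, Psmd14, Psmg4, Pomp, Nfe2l1, Nfe2l2, Uchl5 and Usp14, were chosen after their values were seen. One result of the list of ubiquitin genes is not reported here.

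Cells were clustered (scanpy version 1.11.5, 2000 variable genes, 30 components, 15 neighbours, leidenalg version 0.10.2, resolution 1) without 692 genes. The naming rule was set after the clusters were seen: at least 3 markers and 50% of a class at least 2-fold raised, with 1 of them among the 10 leading genes and no other class having more there. Profiles per state and library were means of linear values, tested on log2(mean + 0.1) with limma (version 3.58.1, R version 4.3.3) for genes averaging 0.1 or more across the table, with library as a term and Benjamini-Hochberg adjustment at 0.05. The library term pairs the classes, since each library held both. The smallest p of an exact sign-flip over 2 libraries is 0.5, and limma shares the spread among genes. The fits were tried on simulated data with an assumed spread, where 200 of 7131 genes were changed 4-fold. They recovered 100% of these (pluripotent-like against other cells) and 99.5% (states). Unchanged genes made up 4.31% and 7.44% of the calls. Far more genes were called in the real data, so these rates need not hold there. Promoter windows were the first listed per gene. Intervals of ratios are exact (Clopper-Pearson), and a count of 0 was read against 3 counts. Alternatives were other pseudocounts, filters, scalings, thinning to 3000 UMIs, cluster resolutions, doublet scores and fits.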

Additional observations from a re-analysis of the deposited data

How the results depend on the processing

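In every alternative the number of proteasome genes called stayed within 1.5 times that reported, from 28 (each cell thinned to 3000 UMIs) to 42 (profiles rescaled by the median ratio) of those tested against all other cells. The median log2 fold against all other cells stayed above 0: it was 0.28 with a pseudocount of 1 and 0.66 with 0.01, 0.53 with no filter, 0.60 with a mean of at least 0.5, 0.76 with median-ratio rescaling, 0.60 without ribosomal protein and mitochondrial genes, 0.51 with pooled UMIs, 0.60 with thinned cells and 0.56 without the top 5% of doublet scores. Against mitotic-like cells alone it was 0.31 and with the other states at equal weight 0.58, alternatives added after seeing the data. With 1 library left out it ranged from 0.567 to 0.573, with no test. Rescaling moved the median of all genes by 0.16, after which 42 proteasome genes were higher, 0 lower and 39.6% of all genes higher. Without the replicate block, 35 genes were called against all other cells (35 higher, 0 lower, so that Psmd9 was not called) and 37 against fibroblast-like cells. Of the 37 genes higher against all other cells, 26 were called higher and 37 kept a positive fold in each of the 12 alternatives other than leaving out a library, the higher minimum of 0.5, which drops low genes, and those added after seeing the data. Among the added ones, Psmc3ip, one of the 26, turned to -0.030 against mitotic-like cells alone (limma adjusted p = 0.82), where its levels were 0.262 and 0.233. The pluripotent-like class rests on 146 cells in replicate 1. Psmb8, Psmb9 and Psmb11 are near the limit of counting there, and Psma8 rests on 30 UMIs.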
